A study of Mus musculus with 2 samples.

Results

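Calcineurin, its RCAN regulators and the NFAT factors it acts on were followed through 7 genes in gastrocnemius, a fast calf muscle: Ppp3ca, Ppp3cb, Ppp3r1, Rcan1, Rcan2, Nfatc1 and Nfatc3. They are 7 of 15631 genes with reads in either library. The genes were chosen by their pathway together with their read levels and, for Rcan1, the reads from each of its promoters, with earlier results of these data known. Levels and pooled promoter use are therefore given as a description. Whether the difference between the libraries also weighed in the choice is not recorded, so p-values printed for Rcan1 place it among all features tested and are no independent support.

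The study sequenced long reads from total RNA, 2 µg per library, of male mice of the F1 hybrid strain B6CASTF1/J aged 10 days. There was 1 group with 2 libraries, replicate 1 and replicate 2, and no treatment, mutant or control. The labels number the tissue samples as different males under 1 shared donor entry. They also cite different versions of the pipeline document for the libraries, so animal and pipeline version cannot be told apart.

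Calcineurin is a phosphatase made of a catalytic A subunit and a calcium-binding B subunit, and it is switched on by calcium and calmodulin. It removes phosphate from NFAT transcription factors, which then enter the nucleus. RCAN proteins bind calcineurin and regulate it, and Rcan1 is itself known as an NFAT target through the promoter at its exon 4. In skeletal muscle the pathway is known for its part in the slow fibre programme.

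Replicate 1 held 1145490 mouse reads and replicate 2 held 941841. The 6 muscle fibre markers, all present, had a total of 261061 reads per 1000000 mouse reads (CPM) for replicate 1 and 259138 CPM for replicate 2. Of 5 lymphocyte markers, the total was 1.75 CPM for replicate 1 and 0 for replicate 2, with Cd3g, Cd4 and Cd79a at 0 in both. Endothelial markers, 6 of 6 listed, had a total of 244 CPM for replicate 1 and 201 CPM for replicate 2. With a limit of 3 reads, a count of 0 allows 2.62 CPM for replicate 1 and 3.19 CPM for replicate 2. Tests compare the reads of these libraries, not conditions, and intervals and limits cover counting error only.

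Ppp3ca, Ppp3r1 and Rcan1 were among the more abundant transcripts, and Ppp3cb was lower, at 39.7 CPM on average. Nfatc1, Nfatc3 and Rcan2 had few reads, between 14 and 27 in each library, which limits what can be described. Levels ran from Ppp3ca at 294 ± 27.9 CPM through Rcan1, Ppp3r1, Ppp3cb, Nfatc1 and Rcan2 to Nfatc3 at 14.4 ± 0.634 CPM (SD, n = 2). Each long read was counted once whatever its length, so CPM was not divided by length. Per kilobase of model length the order was the same except that Rcan2, at 6.66 CPM per kb, stood above Nfatc1, at 6.38 CPM per kb. The range of Rcan1 covered the values of both Ppp3ca and Ppp3r1, whose own ranges did not overlap, and those of Nfatc1 and Rcan2 met in replicate 2 at 18 reads each. Of the 7 genes 1, Rcan1, was called different between the libraries, meaning an adjusted p under 0.05 with a 2-fold difference. Over all 7516 genes with 20 or more reads, 2.55% were called.

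**Figure D1:**
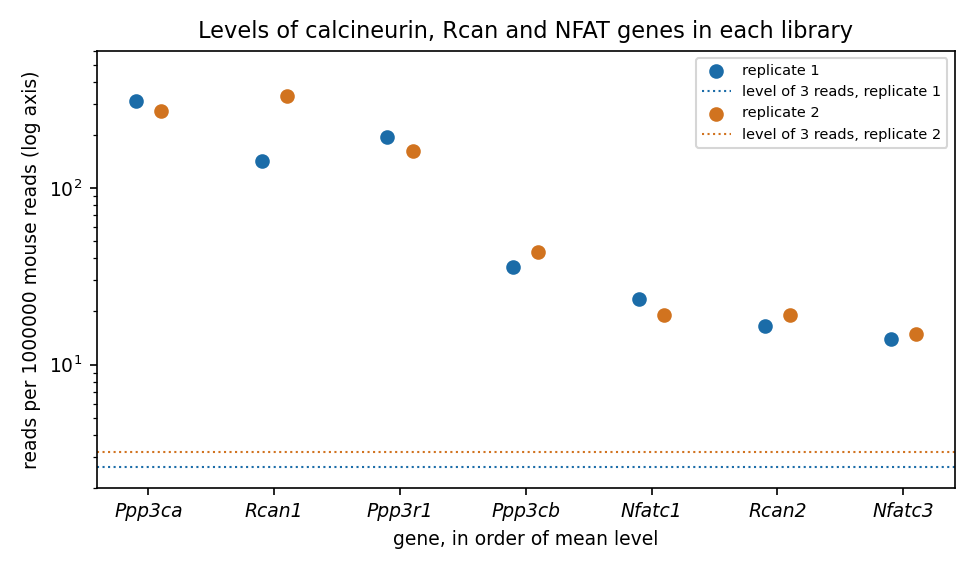
Level of each gene in replicate 1 and replicate 2, in reads per 1000000 mouse reads on a log axis; each point is 1 library and dotted lines mark the level of 3 reads. Points of a gene lie close together except for Rcan1, with 143 CPM in replicate 1 and 332 CPM in replicate 2.

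Ppp3ca, the alpha catalytic subunit (chromosome 3, 136670124 to 136937727, plus strand, mm10), had 359 reads, or 313 CPM, in replicate 1 and 258 reads, or 274 CPM, in replicate 2. The libraries were close, with a log2 ratio of 0.19 and an adjusted p of 0.403 by the exact binomial test. Ppp3cb, the beta catalytic subunit (chromosome 14, 20499364 to 20546573, minus strand), had 41 reads in each library, or 35.8 CPM in replicate 1 and 43.5 CPM in replicate 2, with a log2 ratio of -0.28 and an adjusted p of 0.794. Ppp3r1, the regulatory B subunit (chromosome 11, 17159263 to 17200375, plus strand), had 224 reads, or 196 CPM, in replicate 1 and 153 reads, or 162 CPM, in replicate 2. Its log2 ratio was 0.27, with an adjusted p of 0.352. None of the 3 subunit genes was called.

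The alpha form made up most catalytic subunit RNA in both libraries. Ppp3ca held 89.8% of the reads of Ppp3ca and Ppp3cb in replicate 1 (95% Wilson interval 86.4 to 92.4) and 86.3% in replicate 2 (81.9 to 89.7). The intervals overlap. Ppp3cc, the catalytic subunit best known from testis, had 13 reads in replicate 1 and 7 in replicate 2, and Ppp3r2, the other B subunit gene, had 0 reads.

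Both catalytic genes carry a 30-base exon near the end of the coding sequence, and most reads of each included it. The exons are shown because their sequences are so alike. They are taken from the GENCODE M21 transcripts, on chr3:136932011-136932040 (plus strand) and chr14:20503247-20503276 (minus strand) of GRCm38. Capitals mark the positions that differ, and 26 of 30 bases, or 86.7%, were identical.
Ppp3ca 30-base exon: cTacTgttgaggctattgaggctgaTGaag
Ppp3cb 30-base exon: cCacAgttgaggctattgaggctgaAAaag

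The Ppp3ca exon was in 298 of 349 spanning reads, 85.4% (81.3 to 88.7), in replicate 1 and in 224 of 255, 87.8% (83.3 to 91.3), in replicate 2. The Ppp3cb exon was in 28 of 34 spanning reads, 82.4% (66.5 to 91.7), in replicate 1 and in 31 of 34, 91.2% (77.0 to 97.0), in replicate 2. Each exon has 10 codons, so skipping it keeps the reading frame. Neither was called between the libraries by Fisher's exact test (adjusted p of 1 for both), where 0.175% of 1712 exons tested were called.

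Ppp3ca reads fell mainly on Ppp3ca-201, which holds this exon, and Ppp3ca-202, which lacks it. Ppp3ca-201 had 281 reads, or 78.3%, in replicate 1 and 216 reads, or 83.7%, in replicate 2. Ppp3ca-202 had 50 reads, or 13.9%, in replicate 1 and 29 reads, or 11.2%, in replicate 2. The other Ppp3ca models were rare, and 21 of its 30 models rested on a single read. Ppp3r1 was also nearly uniform. Ppp3r1-201 had 201 reads, or 89.7%, in replicate 1 and 135 reads, or 88.2%, in replicate 2.

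In Ppp3cb, annotated models held a minority of the reads, 43.9% in replicate 1 and 31.7% in replicate 2. For all mouse reads the share on annotated models was 70.9% in replicate 1 and 74.9% in replicate 2. The Ppp3cb model with the most reads was an unannotated one of 15 exons, with 11 reads, or 26.8%, in replicate 1 and 13 reads, or 31.7%, in replicate 2. The deposited tables class this intron chain differently, as holding a new splice site in replicate 1 and as a new combination of annotated sites in replicate 2. Ppp3cb-205 followed with 4 reads in replicate 1 and 7 in replicate 2, and Ppp3cb-202 had 6 reads in replicate 1 and 4 in replicate 2.

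The unannotated Ppp3cb model holds a 27-base internal exon, on chr14:20511474-20511500 (minus strand), that GENCODE M21 lacks. Its length is 9 codons. It was in 15 of 36 spanning reads, 41.7% (27.1 to 57.8), in replicate 1 and in 19 of 36, 52.8% (37.0 to 68.0), in replicate 2, with an adjusted p of 1. So about as many Ppp3cb reads included this exon as skipped it, and the libraries overlapped. Another Ppp3cb exon used acceptor sites 3 bases apart. The upstream site was used by 27 of 37 reads, 73.0% (57.0 to 84.6), in replicate 1 and by 20 of 36, 55.6% (39.6 to 70.5), in replicate 2.

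**Figure D2:**
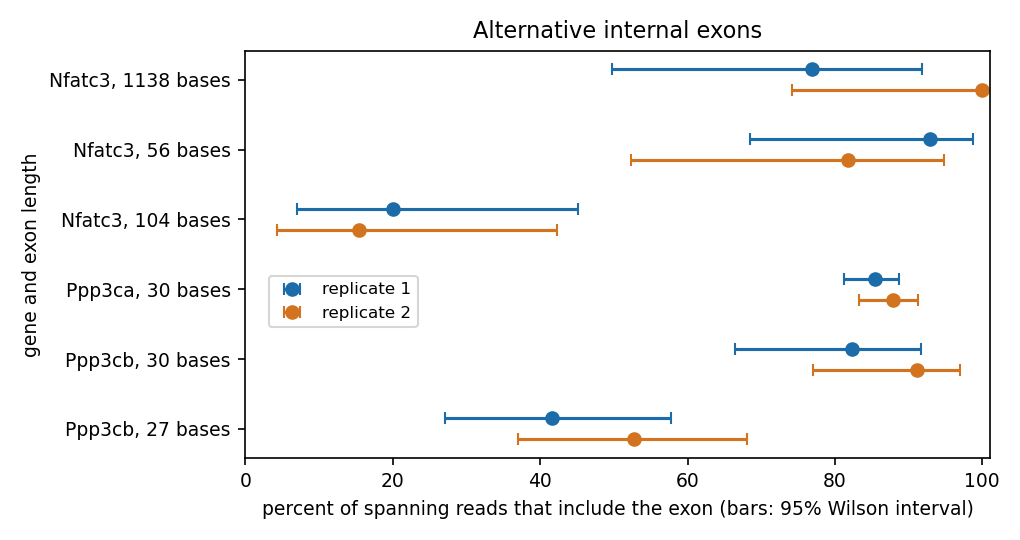
Percent of spanning reads that include each alternative internal exon, with 95% Wilson intervals; replicate 1 is drawn above replicate 2. The 30-base exons of Ppp3ca and Ppp3cb lie at 82.4% or more in each library, the 27-base Ppp3cb exon lies at 41.7% and 52.8% in replicates 1 and 2, and the intervals of the libraries overlap for each exon.

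Rcan1, the regulator of calcineurin encoded on the minus strand of chromosome 16 (92391953 to 92470867), was the gene of the 7 that was called. It had 164 reads, or 143 CPM, in replicate 1 and 313 reads, or 332 CPM, in replicate 2. The level was 2.32 times lower in replicate 1, a log2 ratio of -1.21 with an adjusted p of 6.0e-17 by the exact binomial test. Among the 7516 genes tested, 83 (Rcan1 included) were at or beyond this ratio in the same direction. In bulk tissue, fewer cells of a type and less RNA per cell cannot be told apart.

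The gene has alternative first exons, exon 1 and exon 4, whose starts lie 66069 bases apart. Transcripts from exon 1 and from exon 4 share the exons that follow, so each start gives the protein its own first part. The coding stretch of exon 1 (Rcan1-202, 246 bases, chr16:92465833-92466078) and of exon 4 (Rcan1-201, 87 bases, chr16:92399896-92399982) are printed from GENCODE M21 on GRCm38, minus strand, to show what is exchanged. Capitals mark the start codon.
Rcan1 exon 1 coding part: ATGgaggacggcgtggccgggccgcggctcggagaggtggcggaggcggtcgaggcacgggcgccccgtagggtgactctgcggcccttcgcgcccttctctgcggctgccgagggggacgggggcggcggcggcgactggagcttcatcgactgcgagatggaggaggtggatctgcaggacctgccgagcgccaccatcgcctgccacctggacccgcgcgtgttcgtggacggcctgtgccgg
Rcan1 exon 4 coding part: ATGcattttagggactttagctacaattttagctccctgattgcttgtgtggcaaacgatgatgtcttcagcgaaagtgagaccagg

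The 250 bases before each start are shown because the reads from these starts are compared next. They come from RefSeq on GRCm38.p6, minus strand, at chr16:92466170-92466419 for exon 1 and chr16:92400079-92400328 for exon 4. Capitals mark GGAAA on either strand, the core letters of an NFAT site.
Rcan1 exon 1 promoter: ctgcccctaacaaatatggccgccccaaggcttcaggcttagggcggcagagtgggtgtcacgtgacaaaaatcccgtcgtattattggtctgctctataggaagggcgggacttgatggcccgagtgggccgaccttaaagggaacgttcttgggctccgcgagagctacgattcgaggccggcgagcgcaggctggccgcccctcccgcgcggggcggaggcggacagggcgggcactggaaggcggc
Rcan1 exon 4 promoter: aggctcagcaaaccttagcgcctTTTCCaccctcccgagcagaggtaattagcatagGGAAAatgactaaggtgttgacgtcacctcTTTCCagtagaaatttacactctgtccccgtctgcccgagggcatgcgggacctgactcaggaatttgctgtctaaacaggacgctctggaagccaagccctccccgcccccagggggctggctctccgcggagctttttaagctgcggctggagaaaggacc

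The exon 4 window held 3 such matches, 227, 193 and 163 bases before the RefSeq start, and the exon 1 window held 0. Of 32526 distinct promoter windows of this length, 55.7% held at least 1 match and 6.42% held 3 or more. The exon 4 window also held 1 match to TGANTCA, the AP-1 letters, as 6.73% of windows did at least once. It held 1 match to TGACGTCA, the letters bound by CREB, as 1.56% did. None of these overlapped another. The exon 1 window held 6 matches to GGGCGG, a GC box, a number that 0.892% of windows reached, against 1 in the exon 4 window. A match is a run of letters and no measure of binding.

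Reads starting at exon 4 were the main form of Rcan1 in replicate 2, and the lower Rcan1 level of replicate 1 lay in them. In replicate 1 exon 4 starts had more reads than exon 1 starts, but the Wilson intervals of their shares overlapped. These intervals were 46.3 to 61.6% for exon 4 and 35.5 to 50.6% for exon 1. These shares come from the same reads and no test compared them, so the starts are not ranked for replicate 1. Exon 4 was the first exon of 87 reads, or 76.0 CPM, in replicate 1 and of 251 reads, or 266 CPM, in replicate 2. The level was 3.51 times lower in replicate 1 (log2 ratio -1.81, adjusted p 5.3e-25, exact binomial test). Exon 1 was the first exon of 69 reads, or 60.2 CPM, in replicate 1 and of 48 reads, or 51.0 CPM, in replicate 2. That is a log2 ratio of 0.24 with an adjusted p of 0.789, so the exon 1 level was not called. Across all 7618 first exons with 20 or more reads, 3.56% were called on level, and 27 (0.354%) were at or beyond the Rcan1 exon 4 ratio in its direction. Whether the exon 4 ratio exceeds the exon 1 ratio is what the test of shares asks.

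As a share of spliced Rcan1 reads, exon 4 starts made up 54.0% (46.3 to 61.6) of 161 reads in replicate 1 and 83.4% (78.8 to 87.2) of 301 reads in replicate 2. Exon 1 starts made up 42.9% (35.5 to 50.6) in replicate 1 and 15.9% (12.2 to 20.5) in replicate 2. For each start the intervals of the libraries do not overlap. The exon 4 share was 29.4 points lower in replicate 1 (adjusted p 3.2e-08) and the exon 1 share 26.9 points higher (adjusted p 5.0e-07), by Fisher's exact test. Both sites were called, where 26 of 26925 sites in 4044 genes, or 0.0966%, were called, in 18 genes. The read minimum was set per gene, so this percentage includes many sites with few reads. Of the 26925 sites, 5353 had 20 or more reads over both libraries. Among those 5353, 18 (Rcan1 exon 4 included) differed as far as exon 4 or farther. With annotated models alone, 6 sites in 3 genes were called, and 2 of them were the Rcan1 sites. Exon 4 and exon 1 starts together made up nearly all spliced Rcan1 reads. Their shares therefore mirror each other, and the calls describe the same difference.

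**Figure D3:**
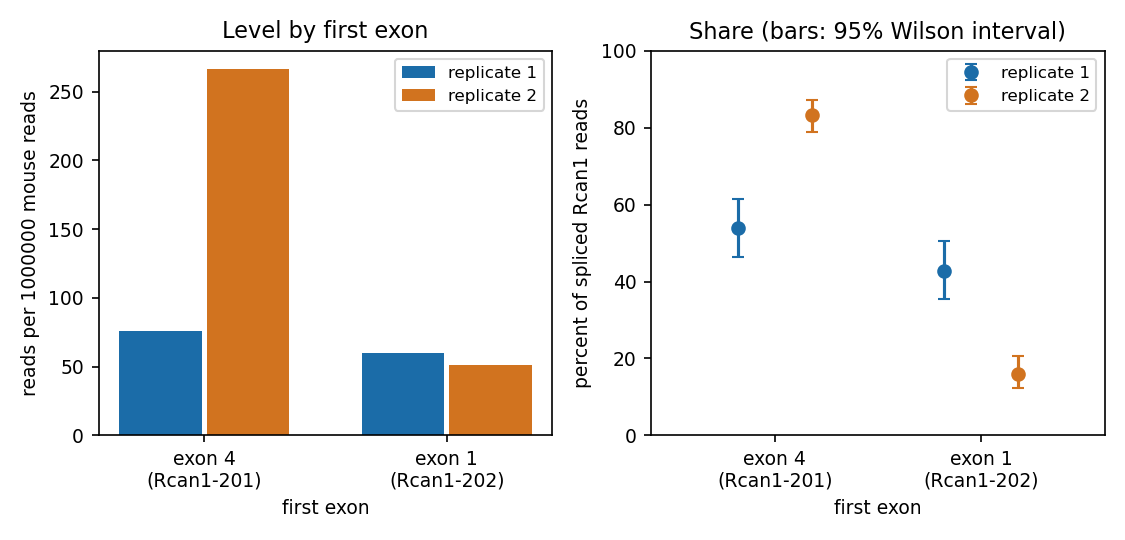
Rcan1 reads by first exon: level in reads per 1000000 mouse reads (left, bars from 0) and percent of spliced Rcan1 reads with 95% Wilson intervals (right), replicate 1 beside replicate 2. For exon 4 starts the bars are 76.0 CPM (replicate 1) and 266 CPM (replicate 2), and for exon 1 starts 60.2 CPM (replicate 1) and 51.0 CPM (replicate 2).

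**Figure D4:**
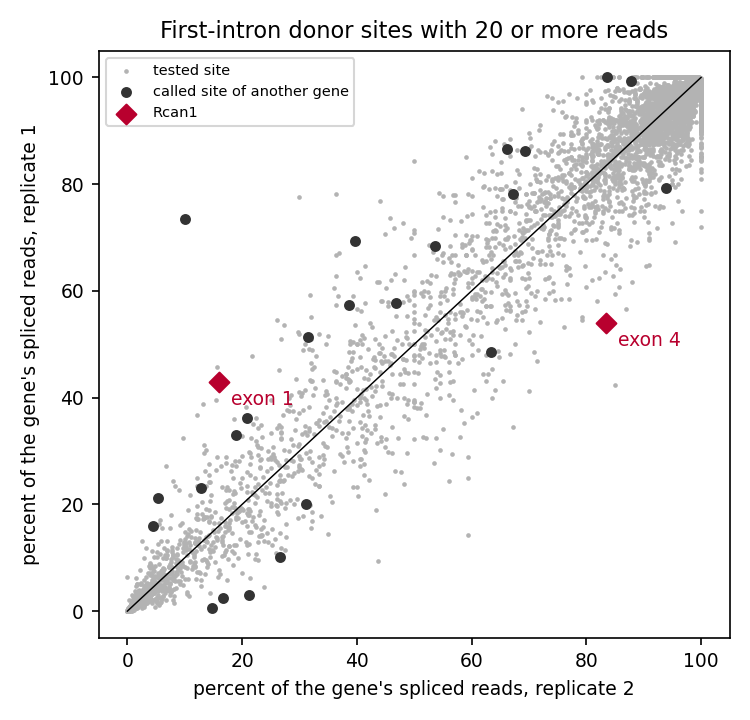
Share of each first-intron donor site among its gene's spliced reads, in percent, replicate 1 on the vertical and replicate 2 on the horizontal axis, for the 5353 tested sites with 20 or more reads; dark points are called sites of other genes and the line marks equal shares. The Rcan1 sites, as red diamonds, lie off the line in opposite directions, and 18 of the 5353 sites (Rcan1 exon 4 included) are as far or farther from it than exon 4.

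The 2 main annotated models followed the starts. Rcan1-201, from exon 4, had 85 reads in replicate 1 and 249 in replicate 2. Rcan1-202, from exon 1, had 69 reads in replicate 1 and 48 in replicate 2. The last exon of the transcripts was shared: 161 of 161 spliced reads in replicate 1 and 299 of 301 in replicate 2 used the annotated one. Where reads end inside that exon was not compared. No last exon was called in the 4 genes that could be tested (Rcan1, Ppp3ca, Ppp3cb and Ppp3r1), nor among all 7759 tested (0%), where 124 had an unadjusted p under 0.05 by Fisher's exact test.

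Other cell type and fibre markers also differed between the libraries in which Rcan1 differed. Red cell globins, 4 of 4 listed, had a total of 397 CPM for replicate 1 and 833 CPM for replicate 2, 2.10 times lower in replicate 1. The fast myosin gene Myh4, at 23388 CPM for replicate 1 and 8871 CPM for replicate 2, was called. Of the other fibre markers, Atp2a1 was also higher in replicate 1, while Acta1, Ckm, Mylpf and Tnnc2 were lower. Fibroblast markers, 5 of 5 listed, totalled 18733 CPM for replicate 1 and 11052 CPM for replicate 2. Most of this total was Col1a1 and Col3a1, which were higher in replicate 1, as was Pdgfra. Dcn was lower in replicate 1, at 512 CPM against 611 CPM in replicate 2. Lum was close, at 123 CPM in replicate 1 and 125 CPM in replicate 2. Of these lists, 2 globins and Myh4 were called, and none of the fibroblast or endothelial markers was. The part of these differences in the Rcan1 values was not tested.

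Rcan2, the paralogue of Rcan1 on the plus strand of chromosome 17 (43801351 to 44039516), was far less abundant. It had 19 reads, or 16.6 CPM, in replicate 1 and 18 reads, or 19.1 CPM, in replicate 2 (log2 ratio -0.20, adjusted p 0.998, exact binomial test). Rcan1 held 89.6% of the reads of both genes in replicate 1 and 94.6% in replicate 2. Rcan2-206 was the main Rcan2 model, with 14 of 19 spliced reads in replicate 1 and 16 of 16 in replicate 2. Starts of Rcan2-204 (3 reads) and Rcan2-201 (2 reads) appeared in replicate 1 and had 0 reads in replicate 2, which is within the limit of 3 reads. Rcan3 had 9 reads in replicate 1 and 4 in replicate 2.

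Nfatc1, the NFAT factor that the pathway itself is known to induce in many cells (chromosome 18, 80606205 to 80713071, minus strand), had 27 reads, or 23.6 CPM, in replicate 1 and 18 reads, or 19.1 CPM, in replicate 2. The log2 ratio was 0.30 with an adjusted p of 0.899 by the exact binomial test. Nfatc3 (chromosome 8, 106058840 to 106130537, plus strand) had 16 reads, or 14.0 CPM, in replicate 1 and 14 reads, or 14.9 CPM, in replicate 2, with a log2 ratio of -0.09 and an adjusted p of 1. At these counts only large differences could be seen. Nfatc2, Nfatc4 and Nfat5 had between 3 and 8 reads in each library and were not tested.

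Many Nfatc1 reads did not reach an annotated start. Incomplete matches made up 14 of 27 reads in replicate 1 and 9 of 18 in replicate 2. Its largest models included incomplete ones of 9 exons, with 6 reads in replicate 1 and 1 in replicate 2, and of 2 exons, with 2 reads in replicate 1 and 5 in replicate 2. Of the annotated models, Nfatc1-205 had 4 reads in replicate 1 and 1 in replicate 2, and Nfatc1-202 had 3 reads in replicate 1 and 2 in replicate 2. The start used most in replicate 1 was an internal one, the donor at 80697555, with 9 of 23 spliced reads, against 2 of 18 in replicate 2. Nearly all of these were incomplete matches: with incomplete and genomic models left out, the mean share of this donor was 5.0%, in place of 25.1%, and that of the proximal annotated exon was 52.8%, in place of 24.8%. Annotated starts were divided between the distal and the proximal first exon. The exon of Nfatc1-202, Nfatc1-204 and Nfatc1-206 had 4 of 23 spliced reads in replicate 1 and 4 of 18 in replicate 2. That of Nfatc1-201, Nfatc1-203 and Nfatc1-205 had 5 of 23 in replicate 1 and 5 of 18 in replicate 2. Most Nfatc1 reads ended in the distal last exon, 20 of 23 in replicate 1 and 14 of 18 in replicate 2, and the last exon of the short forms had 2 reads in replicate 1 and 4 in replicate 2.

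Nfatc3 reads were mostly from its annotated first exon, in 13 of 15 spliced reads in replicate 1 and 10 of 13 in replicate 2. Nfatc3-201 had 7 reads in replicate 1 and 8 in replicate 2, and new combinations of annotated sites followed, one of 11 exons with 3 reads in replicate 1 and 1 in replicate 2 and one of 9 exons with 3 reads in replicate 1 and 0 in replicate 2. An annotated 1138-base coding exon was kept by 10 of 13 reads that span it for replicate 1 and by 11 of 11 for replicate 2. A 104-base exon near the end of the gene was kept by 3 of 15 for replicate 1 and by 2 of 13 for replicate 2. These exons had too few reads for the test.

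**Figure D5:**
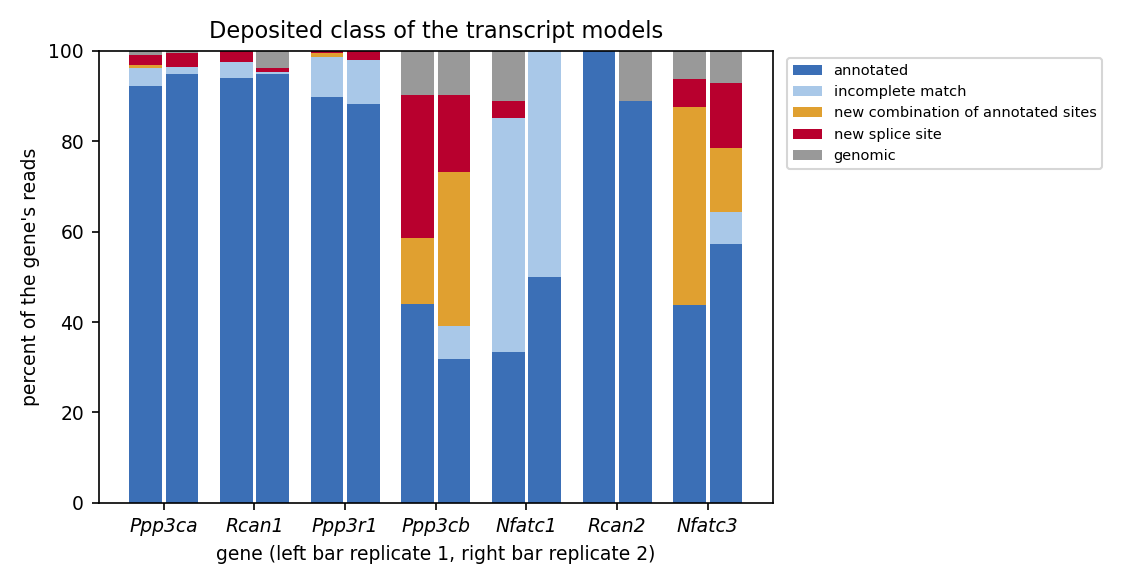
Percent of each gene's reads by the deposited class of its transcript model; the left bar of each pair is replicate 1 and the right bar replicate 2. Annotated models hold 88.2% or more of the reads of Ppp3ca, Rcan1, Ppp3r1 and Rcan2 in each library, while Ppp3cb, Nfatc1 and Nfatc3 lie at 57.1% or less.

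The rest of the pathway was measured through lists of related genes. Over all the lists 1 of 35 tested genes was called, Rcan1, or 2.86%, which is near the 2.55% called over all genes. In the regulators of calcineurin 1 of 8 tested genes was called, and the most abundant was Myoz1, a Z-disc protein that binds calcineurin, at 2240 ± 60.1 CPM (SD, n = 2). The calcineurin subunits (4 tested), NFAT factors (2 tested), NFAT kinases (5 tested), calmodulin and calcium entry genes (8 tested) and partners and slow-fibre targets (8 tested) gave 0 called genes. By adjusted p alone, without the 2-fold rule, the genes lower in replicate 1 included Myoz2, Calm2, Mb, Tnni1 and Tnnt1, and Dyrk2 and Myh7 were higher. Over all 7516 genes tested, 654 passed on adjusted p alone. Among slow-fibre genes the signs differed: Tnnt1 had 181 CPM in replicate 1 and 296 CPM in replicate 2, whereas Myh7 had 757 CPM in replicate 1 and 581 CPM in replicate 2. Median log2 ratios of the lists lay between -0.17 and 0.23, beside 0.01 for all tested genes.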

How the data were processed

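Long-read RNA-seq counts of 2 gastrocnemius libraries were used. The authors deposited raw counts of reads per transcript model, not normalized, listing models with at least 1 read, per the file headers. The genome was mm10 and the gene annotation GENCODE M21, per the labels and deposited descriptions, and the model files carry TALON attributes. For the aligner, no source used here gives a name. The authors' counting assigns reads to models by their introns, so the donor site of the first intron named the first exon. A read cut short past that intron takes a later donor instead, and its model can be classed as incomplete or as new.

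Counts were summed per gene, and CPM used mouse reads without spike-ins. A binomial test, exact, two-sided and conditional on the total, was run across all genes that had at least 20 reads when the libraries were added, and the level of each first exon likewise, the last chosen after seeing the data. Shares of first and last exons and exon inclusion were tested by Fisher's exact test with 20 or more reads in each library. P-values were adjusted by Benjamini-Hochberg over all features tested. Calls needed a 2-fold difference (or 10 points for shares) beside an adjusted p under 0.05. With 1 group of 2 libraries there are no residual degrees of freedom, so edgeR's quasi-likelihood test could not be fitted, and edgeR and DESeq2 gave scaling factors alone. The labels number different males under 1 shared donor entry and do not say further how the animals relate. P-values therefore measure only counting error between these libraries.

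The members and lists were chosen with earlier results of these data known. All 7 genes are named, with models at 10% or more of a gene's reads, and exons used in 5% to 95% of reads; other genes are named as paralogues, or as the highest of a list; 1 item that this rule takes is not reported here. Pathway genes named for their adjusted p alone, and Nr4a1 and Ccn1, were chosen after their values were seen. Promoter windows came from RefSeq and exons from GENCODE transcripts. The tests were tried on simulated data that held counting error alone, so this could not show how they behave with variation between animals. Alternatives changed scaling, read minimum, model classes and the size rule. Python 3.11.15, scipy 1.17.1, pandas 2.3.3, R 4.3.3, edgeR 4.0.16 and DESeq2 1.42.0 were used.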

Additional observations from a re-analysis of the deposited data

How the results depend on the processing

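The Rcan1 differences kept their direction and call under every alternative run for them. The log2 ratio lay between -1.23 and -1.16, and the exon 4 difference was -28.6 points with annotated models only. Leaving out each replicate gave Rcan1 exon 4 shares of 54.0 to 83.4%. No other gene of the 7 was called on its level under any setting. Of values for single genes or exons under alternatives other than leaving out a library, 109 kept their side or moved by less than 1 SD, 11 moved further and 1 changed sign. The Ppp3cb log2 ratio, -0.28, was 0.19 with annotated models only, neither being called. Counts over all features moved with the size rule and the read minimum. Gene calls numbered 192, against 59 with at least 100 reads and 654 at any fold. First exon share calls numbered 26, against 91 at any difference and 6 with annotated models only. First exon level calls numbered 271, against 87 with at least 100 reads and 672 at any fold, alternatives chosen after seeing the data. Last exon calls numbered 0, against 3 at any difference, and exon inclusion calls 3, against 8. With annotated models only, levels fell to 14.8 CPM for Ppp3cb, 8.71 CPM for Nfatc1 and 7.30 CPM for Nfatc3, since unannotated models hold the rest. Ppp3cb, Rcan2 and the NFAT genes rest on 14 to 41 reads per library, so splicing in them is known only within wide intervals. No paired analysis was possible because there is 1 group.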

Other observations

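Immediate early genes, a list added after the data were seen, had 14 of 16 genes with reads. Their sum was 238 CPM in replicate 1 and 406 CPM in replicate 2, 1.70 times lower in replicate 1. Of 7 tested genes 1 was called, where 2.55% of all genes were. This was Ccn1, a secreted matrix protein, with 30 reads, or 26.2 CPM, in replicate 1 and 51 reads, or 54.1 CPM, in replicate 2, a log2 ratio of -1.05 with an adjusted p of 0.0268 by the exact binomial test. Dusp1, a phosphatase of MAP kinases and the most abundant of them, had 73.3 CPM in replicate 1 and 138 CPM in replicate 2, a log2 ratio of -0.91 with an adjusted p of 2.1e-04 by the exact binomial test, short of the 2-fold rule. Nr4a1, an orphan nuclear receptor, had 19.2 CPM in replicate 1 and 39.3 CPM in replicate 2, with an adjusted p of 0.0896. How these relate to Rcan1 was not tested.

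Besides exons 1 and 4, Rcan1 had an unannotated first exon, whose first intron begins at the donor next to base 92398676, with 2 reads in replicate 1 and 1 read in replicate 2. Unspliced reads classed as genomic numbered 0 for Rcan1 in replicate 1 and 12 in replicate 2. Without genomic models the Rcan1 log2 ratio was -1.16.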
